A study of Caenorhabditis elegans with 4 samples.

Results

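The LIN-15B binding regions described here are those on the 2 arms of chromosome V of Caenorhabditis elegans, taken as the regions of the deposited list whose midpoint lies below 7000000 (the left arm) or at 14000000 and above (the right arm), in WormBase WS180 coordinates. There were 405 of them among the 4141 regions of the list, or 9.78%, with 218 on the left arm and 187 on the right arm. The other 286 regions of chromosome V lay in its centre. Members were chosen by position alone, without regard to their q-value. At the left limit, the last region inside spanned 6970110 to 6970300 (q = 0.00436) and the first outside 7060348 to 7060726 (q = 3.19e-15). At the right limit, the first region inside spanned 14006842 to 14007155 (q = 2.12e-07) and the last outside 13962063 to 13962366 (q = 1.66e-05).

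The regions came from ChIP-seq on whole hermaphrodites of strain OP184 at the L3 larval stage, raised at 20 °C. The 2 samples of immunoprecipitated DNA (antibody against GFP) and the 2 of input DNA came from the same strain, numbered 1 and 2 in each group. All 4 therefore share the unc119(ed3) allele and the transgene wgIs184, in which lin-15B is fused to TY1, EGFP and FLAG and which also carries unc119. The transgene was introduced by bombardment, the listed genotype names no mutation of the endogenous lin-15B gene, and signal from all tissues of the worm is pooled. The list is a combined one: it holds 1 q-value per region and no separate value for replicate 1 or 2, so no spread between replicates could be given. Read depth is unknown, and the exact intervals below cover counting error only.

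LIN-15B carries a THAP zinc finger and belongs to the synMuv B proteins, chromatin regulators best known for restraining vulval development and for keeping germline genes repressed in somatic tissue. The autosomes of C. elegans are divided into a centre, rich in widely expressed genes and poor in recombination, and 2 arms that recombine more often, hold more repeats and carry more histone H3 lysine 9 methylation. The arms and centre compared here were set by coordinates alone, and their limits need not match those of that division. The arms of chromosome V are known for large nematode gene families, among them those encoding chemoreceptors. Which genes lie at the regions below was not analysed here, and no sequence is shown, because no genome or annotation of the build WS180 was used.

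Regions were sparse on both arms. The density was 29.2 regions per Mb over 13.9 Mb of arm (95% exact Poisson interval 26.4 to 32.2), with 31.2 per Mb on the left arm (27.2 to 35.6) and 27.2 on the right (23.4 to 31.4). It was 40.9 per Mb in the centre of the chromosome (36.3 to 45.9), so that the arms held 0.715 times the density of the centre (95% exact interval 0.613 to 0.835). The difference passed the threshold of 0.05 (exact binomial test of the 2 counts given their spans, two-sided, adjusted p = 3.12e-05 by Benjamini-Hochberg over 5 comparisons). The left arm had 1.15 times the density of the right (0.939 to 1.40), which did not pass (exact binomial adjusted p = 0.18). The regions of the arms covered 152 kb in all, 1.10% of the arms, against 1.58% of the centre.

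The arms of chromosomes II, III and IV, taken as the outer 33.3% of each chromosome's span on either side, were more densely bound than those of V. The 382 regions on the arms of II gave 37.6 per Mb, the 512 on those of III 55.9, and the 545 on those of IV 46.96. The density on the arms of V was 0.523 times that of III (95% exact interval 0.458 to 0.597, exact binomial adjusted p = 7.64e-22) and 0.622 times that of IV (0.546 to 0.709, adjusted p = 9.37e-13). Against II the ratio was 0.777 (0.674 to 0.896, adjusted p = 0.000574 in the exact test), and it did not pass in a quasi-Poisson regression of counts in 27 windows of 500 kb on V and 20 on II (adjusted p = 0.0751). These exact tests treat regions as independent of each other, while the variance of counts in whole 500 kb windows was 3.27 times their mean on the arms of V. The quasi-Poisson regression gave 0.518 to III (95% interval 0.414 to 0.646, adjusted p = 1.99e-06) and 0.613 to IV (0.482 to 0.78, adjusted p = 0.000413). Taken singly, the sparsest of these 8 arms were the right arm of V (27.2 per Mb), the left arm of II (27.4) and the left arm of V (31.2), whose intervals overlap one another, and the next was the right arm of IV (38.1).

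**Figure D1:**
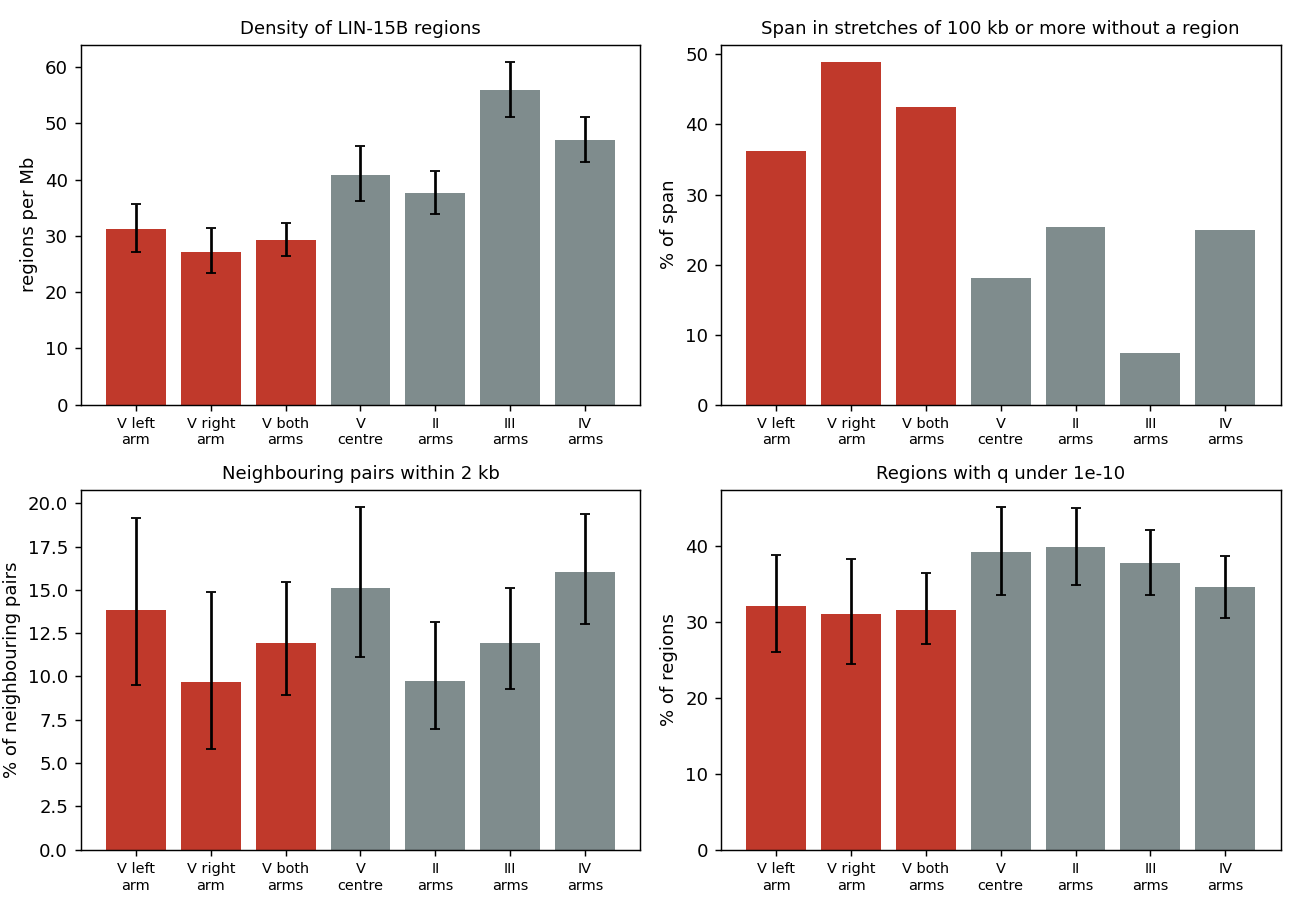
Density of regions, share of span in long stretches without a region, share of neighbouring pairs within 2 kb and share of regions with q under 1e-10, for the V arms (red) and the V centre and other arms (grey). Bars start at 0 and error bars are 95% exact intervals (Poisson for density, Clopper-Pearson for the 2 lower panels); of the pooled sets shown, the V arms have the lowest density and the largest share of span in long stretches, 42.5%.

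Along both arms the regions were densest next to the centre, thinnest in the middle of the arm and denser again towards the chromosome end. On the left arm the section from 5.5 to 7 Mb held 66 regions at 44.0 per Mb, that from 2 to 5.5 Mb 82 at 23.4 per Mb, and that below 2 Mb 70 at 35.2 per Mb. On the right arm the section from 14 to 15.5 Mb held 75 regions at 50 per Mb, that from 15.5 to 20 Mb 78 at 17.3 per Mb, and the last part, from 20 Mb on, 34 at 38.9 per Mb. These sections were drawn after the counts had been seen, so the pattern is a description with no test. The inner sections had densities above that of the chromosome's centre, 40.9 per Mb, and the middle sections of the arms were the part that fell furthest below it.

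In windows of 500 kb the left arm ranged from 9 regions, at 2500001 to 3000000 and again at 3000001 to 3500000, up to 24 at 5500001 to 6000000. The right arm had the wider range: 33 regions at 14000001 to 14500000 and a single one, with -log10 q of 3.58, at 17000001 to 17500000. The variance of window counts was 5.5 times their mean on the right arm, 1.57 times on the left and 1.13 times in the centre of V. The right arm was thus the less even of the 2, although its total lay close to that of the left.

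**Figure D2:**
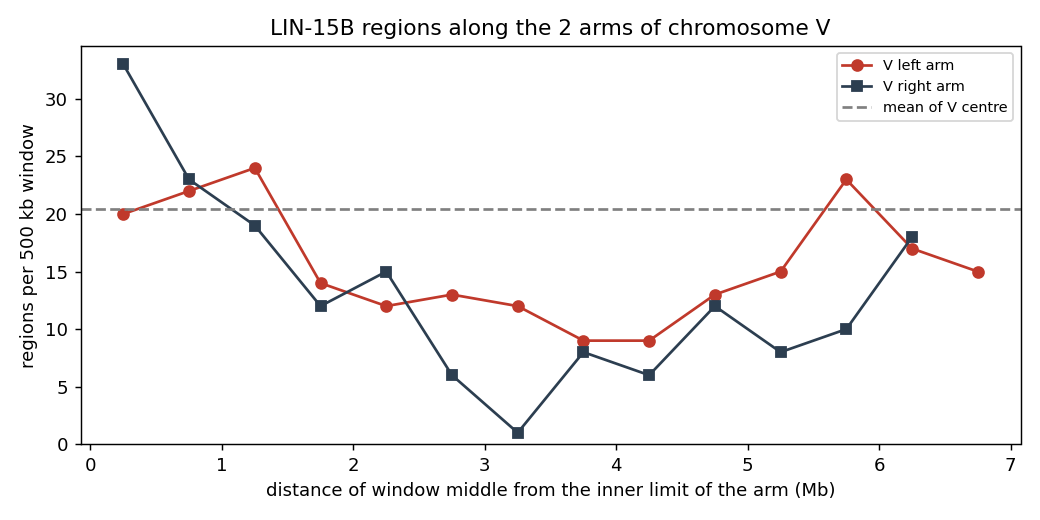
Number of regions in each whole 500 kb window of the V left arm (circles) and right arm (squares) against the distance of the window from the arm's inner limit in Mb. The last window of the right arm, which runs past the last region, is not shown. The dashed line is the mean of the V centre, 20.4; counts on the right arm drop from 33 beside the centre to 1 at the window centred 3.25 Mb out.

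Long stretches with no region took up much of both arms. Counting from the last base of one region to the first base of the next, 35 stretches of 100 kb or more lay on the arms, 15 on the left and 20 on the right. Together they came to 5.90 Mb or 42.5% of the arms, with 36.2% of the left arm and 49.0% of the right. In the centre of V 9 such stretches came to 18.0% of the span. On the other chromosomes they came to 25.4% of the arms of II (17 stretches), 7.39% of those of III (5 stretches) and 24.9% of those of IV (20 stretches). Single arms differed widely: the left arm of II, with 39.8% and a longest stretch of 395 kb, stood above the left arm of V (36.2%, 319 kb), and the right arm of IV, with 34.1%, just below it. The right arm of II had 11.1% and the left arm of IV 15.7%, while the arms of III had 12.05% (left) and 2.73% (right).

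Per 10 Mb, the arms of V had 25.2 stretches of this length (95% exact Poisson interval 17.6 to 35.1), against 12.9 in the centre of V (5.88 to 24.4), 16.7 on the arms of II (9.75 to 26.8), 5.46 on those of III (1.77 to 12.7) and 17.2 on those of IV (10.5 to 26.6). The interval for V overlaps those for the V centre, II and IV and lies above that for III. No test was made of stretches, since their length follows in part from the number of regions.

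The typical spacing differed little within chromosome V. The median stretch between neighbours was 15.6 kb on the left arm, 15.3 kb on the right arm and 15.5 kb in the centre. The upper quartile was 43.1 kb on the arms and 34.7 kb in the centre. With stretches of 100 kb or more left out of the span, the arms of V held 50.8 regions per Mb, the centre 49.9 and the arms of II 50.4, while those of III held 60.3 and those of IV 62.6. Leaving out empty span raises every such density by construction, and most where long stretches are most frequent.

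**Figure D3:**
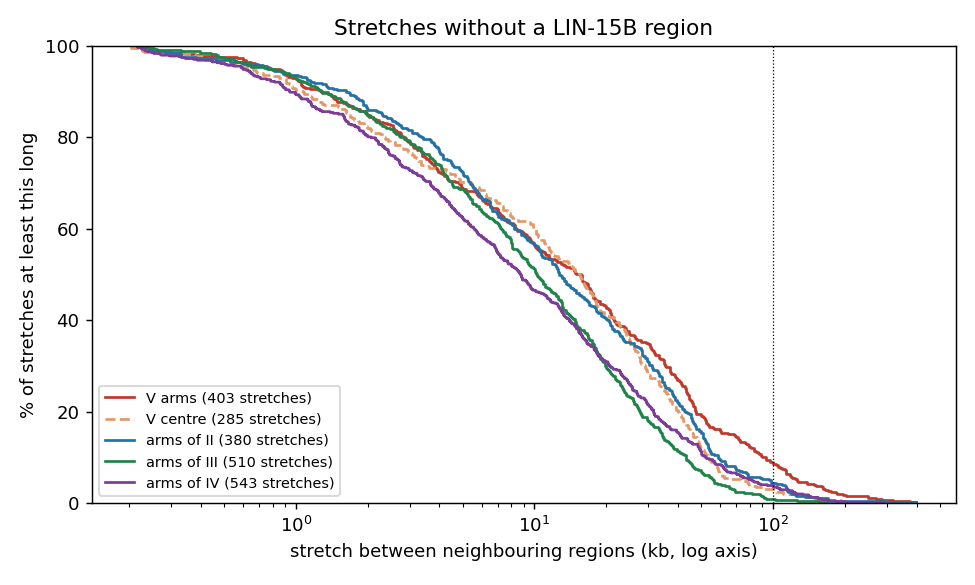
Share of stretches between neighbouring regions (vertical axis, %) that are at least as long as the length on the horizontal axis (kb, log scale), for the V arms, the V centre and the arms of II, III and IV. At 100 kb (dotted line) the curve of the V arms lies above the others, with 35 of 403 stretches at least that long.

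The longest stretch of the arms, 397 kb, lay on the right arm at 16966241 to 17363453, between a region with -log10 q of 54.0 and one of 3.58. The next on that arm was 375 kb at 18115378 to 18490410, between regions of 8.38 and 6.10, followed by 249 kb at 19644242 to 19892984. On the left arm the longest was 319 kb at 2281922 to 2600559, bounded by regions of 8.75 and 44.8. It was followed by 285 kb at 2803502 to 3088435, 270 kb at 3759917 to 4029761 and 202 kb at 4844965 to 5047396. These 7 were the stretches above 200 kb; the centre of V and the arms of III had none of that length, and the arms of II and IV had 2 each.

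A further 9 stretches measured 150 to 200 kb. Those of the left arm lay at 349444 to 532077 (183 kb) and 4195196 to 4346767 (152 kb). Those of the right arm lay at 16040783 to 16225703 (185 kb), 16592475 to 16752394 (160 kb), 16795287 to 16965597 (170 kb), 17363669 to 17538473 (175 kb), 17662187 to 17857765 (196 kb), 19190451 to 19352063 (162 kb) and 19358325 to 19522716 (164 kb). All but the first of these 9 fell in the middle sections of the arms described above.

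Several stretches followed one another with single regions between them. On the right arm, 5 stretches in a row reached from 16795287 to 17857765, a span of 1062.5 kb that held 4 regions, at 16965598 to 16966240, 17363454 to 17363668, 17538474 to 17538816 and 17662018 to 17662186. Their -log10 q values were 54.0, 3.58, 6.46 and 2.20. On the left arm 3 stretches in a row reached from 2694812 to 3193074 (498 kb) and held 2 regions, with -log10 q of 2.25 and 2.61. In all 9 arm regions stood alone between 2 long stretches, and 2 of them, both on the right arm, had q under 1e-10.

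Next to the emptiest block lay a group of mostly strong regions. Between the end of the 1062.5 kb block and the 375 kb stretch, 11 regions spanned 17857766 to 18115377 (258 kb), and 9 of the 11 had q under 1e-10. Their -log10 q ranged from 7.39 to 105 with a median of 12.1, against 4.88 for all arm regions, and none had a neighbour within 2 kb. The strongest of them, at 17951011 to 17951812, was the sixth strongest region of the arms. This group was singled out after its values were seen, and no test of it was made.

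The 61 regions at the edge of a long stretch had a median -log10 q of 4.05, against 5.03 for the 344 other arm regions, and 16 of the 61 (26.2%) had q under 1e-10, against 112 of the 344 (32.6%). Of the 35 stretches, 15 had such a region on at least 1 side and 3 on both sides. At 22 stretches at least 1 bounding region had a q of 0.001 or more, so that its edge rests on a weak region. Of all arm regions, 31.6% had q under 1e-10 and 25.9% a q of 0.001 or more. Each stretch has 2 edges, so both counts follow in part from these shares, and neither was tested. With regions of q of 0.001 or more left out, the arms had 40 stretches of 100 kb or more, the centre of V 14, and the arms of II, III and IV 22, 6 and 21. Per 10 Mb these counts were 28.8 on the arms of V, 20.0 in its centre, and 21.6, 6.55 and 18.1 on the arms of II, III and IV.

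**Figure D4:**
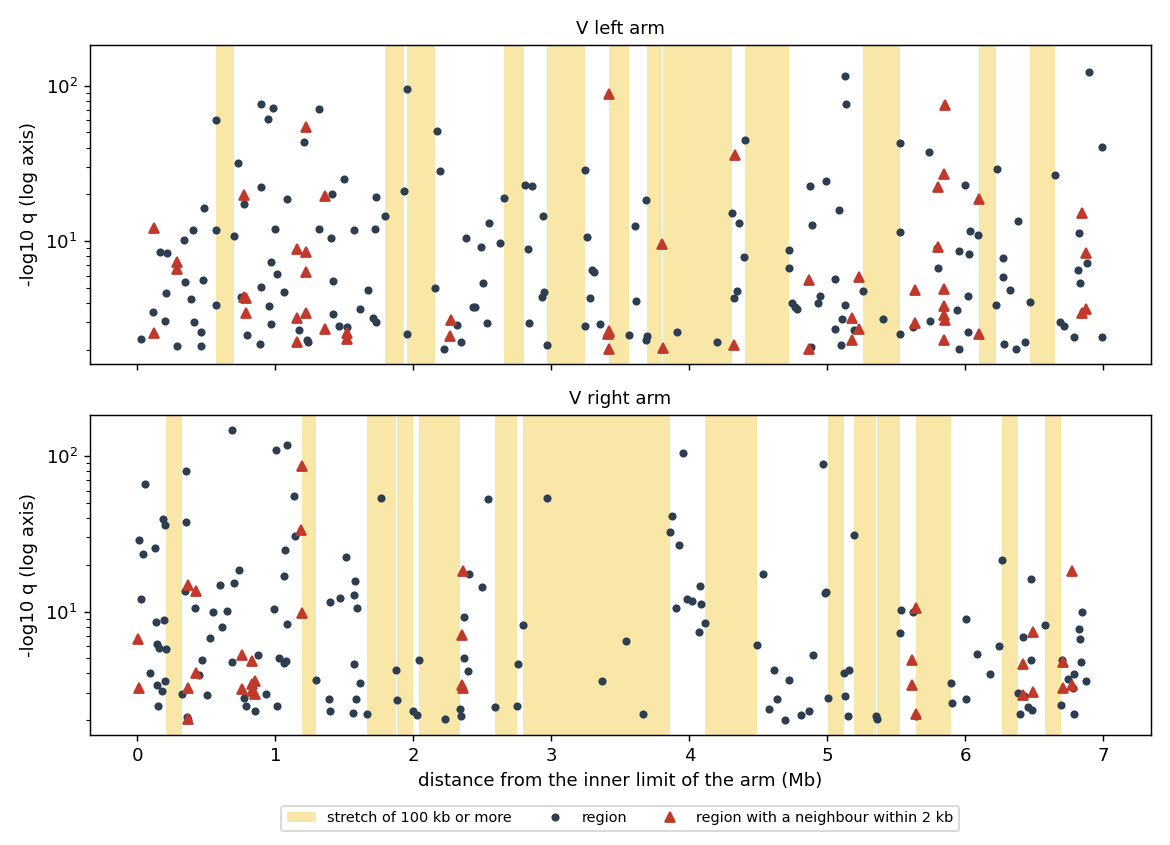
Strength (-log10 q, log axis) of each of the 218 left-arm and 187 right-arm regions against distance from the arm's inner limit in Mb; triangles mark regions with a neighbour within 2 kb and shaded bands mark the 35 stretches of 100 kb or more. On the right arm 5 bands follow each other with 4 single regions between them, and the group of 11 regions, 9 of them with q under 1e-10, lies just outward of them.

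Close pairs, meaning neighbours whose midpoints are at most 2 kb apart, were present on both arms at about the rate of the whole list. There were 48 among 403 neighbouring pairs, or 11.9% (95% exact interval 8.91% to 15.5%), against 11% of all 4135 neighbouring pairs of the list. The left arm had 30 (13.8%, 9.53% to 19.1%) and the right arm 18 (9.68%, 5.84% to 14.9%). The shares were 15.1% in the centre of V, 9.74% on the arms of II, 12.0% on those of III and 16.0% on those of IV. Close pairs rise with density, which was lowest on the arms of V among these pooled sets. The shares were not adjusted for density, so like shares do not mean like clustering.

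None of the 5 comparisons of this share passed. The ratio of the V arms was 1.22 to the arms of II (95% exact interval 0.780 to 1.93), 0.996 to those of III (0.668 to 1.48), 0.743 to those of IV (0.511 to 1.07) and 0.789 to the centre of V (0.512 to 1.22). That of the left arm to the right was 1.43 (0.771 to 2.72), and the exact binomial adjusted p ranged from 0.479 to 1. The intervals allow differences up to these bounds and do not show that the shares are alike. Pairs in the same run share a region and are not independent.

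Of the 48 pairs, 16 were at most 1 kb apart and 32 were 1 to 2 kb apart, and a further 72 neighbouring pairs were 2 to 5 kb apart. The closest pair, 243 bases between midpoints, was formed by 2 very narrow regions, 5477890 to 5477908 and 5478142 to 5478142, with -log10 q of 2.56 and 2.33. The next 4 were 14754651 to 14754665 with 14755011 to 14755102 (398.5 bases), 1820877 to 1821082 with 1821351 to 1821602 (497 bases), 20488465 to 20488561 with 20488806 to 20489326 (553 bases), and 6213344 to 6213630 with 6213880 to 6214272 (589 bases). The strongest region in these 5 pairs had -log10 q of 7.38. No 2 regions of the arms had fewer than 233 bases between their edges.

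Across the 48 pairs the median -log10 q was 7.17 for the stronger member and 3.10 for the weaker one. Ordering each pair by strength sets these medians apart by construction. In 1 pair both members had q under 1e-10, in 17 pairs 1 member did, and in 30 pairs neither did. The weaker member had a q of 0.001 or more in 21 of the 48 pairs, 17 of them on the left arm and 4 on the right, against 19 of 43 in the centre of V, 18 of 37 on the arms of II, 26 of 61 on those of III and 42 of 87 on those of IV. Such a q was borne by 25.9% of all arm regions, and either of the 2 members of a pair can bear it. The count of 21 was not tested against that share. The stronger member was the one at the lower coordinate in 27 pairs and at the higher coordinate in 21. By comparison both members had q under 1e-10 in 1 of 43 pairs in the centre of V, 1 of 37 on the arms of II, 8 of 61 on those of III and 10 of 87 on those of IV.

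**Figure D5:**
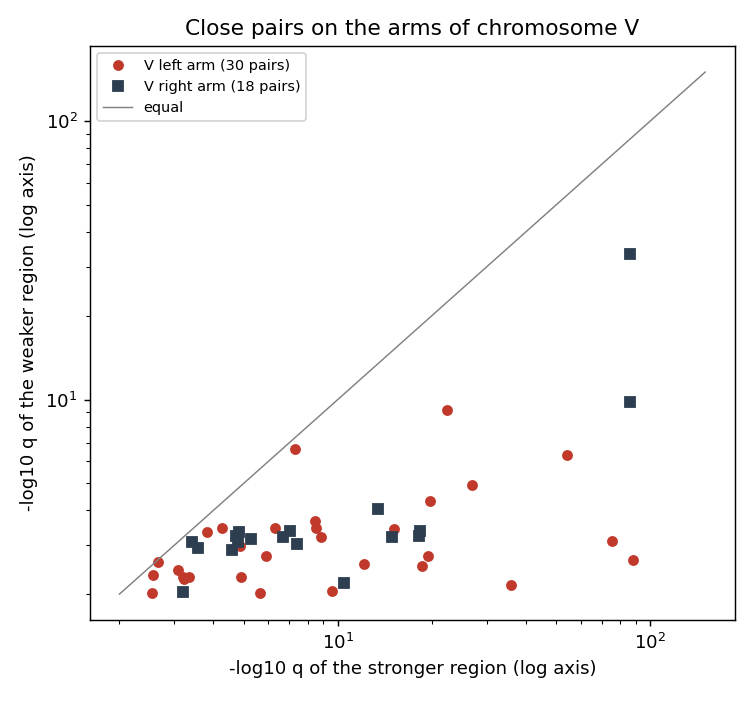
Strength of the weaker region against that of the stronger one (-log10 q, both axes log) for the 30 close pairs of the left arm and the 18 of the right arm; the line marks equal strength. The weaker member stays below 10 in all but 1 pair, which has 33.4.

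The 86 arm regions with a close neighbour, 21.2% of the members, fell into 31 pairs and 7 longer runs. Such regions made up 27.3% of those in the centre of V, 18.3% on the arms of II, 21.9% on those of III and 28.1% on those of IV. Each of these sets also had runs of 3 or more. The longest run on the arms of V had 5 regions within 5225 bases, on the left arm, at 1153430 to 1154964, 1155842 to 1156163, 1156935 to 1157021, 1157624 to 1157823 and 1158072 to 1158654. Its first region was also the widest of the arms, and the -log10 q values along the run were 26.8, 4.91, 2.31, 3.35 and 3.82. A run of 4 lay at 5776863 to 5781074, with values of 54.3, 6.30, 3.44 and 8.54. Both runs, as bounded by the 2 kb limit, had 1 strong region at the end of lower coordinate and weaker ones beside it. A stronger region, at 1151207 to 1152061 with -log10 q of 75.4, lay 2563 bases before the first region of the run of 5. Only 1 of the 5 runs of 3, at 15187428 to 15191258, held 2 regions with q under 1e-10, with values of 33.4, 85.9 and 9.78.

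Regions with a close neighbour had a median -log10 q of 3.73, against 5.36 for the 319 without one, and 18 of the 86 (20.9%) had q under 1e-10, against 110 of the 319 (34.5%). Their median width was 331 bp, against 351 bp. Width, strength and the splitting of signal into neighbouring regions come from the same peak calling, and their part in this difference was not tested.

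In strength the members ranged from -log10 q of 2.00 to 148. The median -log10 q was 4.88 (quartiles 2.95 and 12.1), with 4.90 on the left arm and 4.85 on the right. It was 6.57 in the centre of V, 6.85 on the arms of II, 6.69 on those of III, 6.05 on those of IV and 6.30 over the whole list. A q under 1e-10 was reached by 128 of the 405 (31.6%, 95% exact interval 27.1% to 36.4%), against 36.1% of the list, and a q under 1e-50 by 25 (6.17%), against 6.54% of the list. A q of 0.001 or more was borne by 105 (25.9%, 21.7% to 30.5%), against 21.9% of the list, which lies inside that interval. The share was 21.7% in the centre of V, 19.1% on the arms of II, 19.3% on those of III and 23.1% on those of IV. None of the 5 ratios of the share with q under 0.001 passed (exact binomial adjusted p from 0.73 to 0.862). That test takes the counts as Poisson, which makes it very hard to pass for a share as large as 74.1%, that of the arms. It therefore cannot decide whether these shares differ.

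The share with q under 1e-10 was compared between sets, and none of the 5 ratios passed. It was 0.794 to the arms of II (95% exact interval 0.623 to 1.01, exact binomial adjusted p = 0.215), 0.838 to those of III (0.665 to 1.05, adjusted p = 0.215), 0.916 to those of IV (0.726 to 1.15, adjusted p = 0.575) and 0.807 to the centre of V (0.621 to 1.05, adjusted p = 0.215). The left arm stood at 1.04 times the right (0.721 to 1.49, exact binomial adjusted p = 0.86). These tests take the counts as Poisson, which makes the intervals too wide for shares of a fixed number of regions. Not passing therefore does not show that the shares are alike. With the outer 25% of each span taken as the arm, the ratios to II (0.708), III (0.712) and the remaining centre of V (0.715) passed narrowly, each with an exact binomial adjusted p of 0.0465. The differences in median strength were not tested.

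Strength also varied along the arms. On the right arm 3 of the 34 regions from 20 Mb on had q under 1e-10 (8.82%), against 29 of 75 between 14 and 15.5 Mb (38.7%). On the left arm the shares ran from 28.6% below 2 Mb (20 of 70) to 36.4% between 5.5 and 7 Mb (24 of 66). The right end, at 38.9 regions per Mb, was about as densely populated as the left end, at 35.2, with a lower share of strong regions. These sections were chosen after the values were seen.

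The strongest region of the arms, at 14685477 to 14686095 on the right arm with -log10 q of 148, was also the strongest of the list. The second, at 104315 to 104959 near the left end, had 122 and ranked 15 in the list. They were followed by 15085224 to 15085816 (118), 1871632 to 1872195 (116), 15002016 to 15002701 (109) and 17951011 to 17951812 (105). The remaining ones of the 10 strongest were 5049209 to 5049939 (95.7), 18967574 to 18968022 (88.6), 3579271 to 3580280 (88.2) and 15189508 to 15189985 (85.9). Of these 10, 6 lay on the right arm, 4 of them between 14685477 and 15189985. The arms held 11 of the 100 strongest regions of the list, or 11%, beside their 9.78% of all regions.

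The 10 strongest stood in different surroundings. The region at 3579271 to 3580280 followed a stretch of 138 kb and began a run of 3 that was 3183 bases long, with 2 weak regions of -log10 q 2.65 and 2.61 behind it. That at 15189508 to 15189985 was the middle of a run of 3. The other 8 had no neighbour within 2 kb. The one at 5049209 to 5049939 stood in a group of 3 regions spanning 18.2 kb between stretches of 202 and 139 kb.

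Most members were narrow, with a median width of 349 bp (quartiles 266 and 437 bp), against 362 bp in the centre of V and 353 to 370 bp on the arms of II, III and IV. There were 6 regions wider than 1000 bp among the 405, 5 on the left arm and 1 on the right, against 58 among the 4141 of the list. The 3 widest, all on the left arm, lay at 1153430 to 1154964 (1535 bp, -log10 q of 26.8), 1471222 to 1472412 (1191 bp, 42.6) and 8104 to 9235 (1132 bp, 40.4), the last being the first region of the chromosome. Of the 36 regions under 50 bp in the list 8 lay on these arms, 5 on the left and 3 on the right. The arms of V held 9.78% of all regions, and 12 of the 36 lay on the arms of IV. The narrowest of the 8 on V spanned the single base 5478142, and the strongest of these 8, at 14754651 to 14754665, had -log10 q of 3.16.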

How the data were processed

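The data were 1 combined list of regions for 2 immunoprecipitated and 2 input samples, grouped by their descriptions. The build is WormBase WS180 and the caller PeakSeq, per the file headers and lines. The deposited value of a region is a q-value. Not given in the sources used here are the caller's version and settings, the aligner, the filters and the way replicates were combined. Per the labels' protocols, worms were crosslinked in 2% formaldehyde, and the text speaks of embryos at lysis although the samples are labelled L3.

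Strength is -log10 of the authors' q-value, which depends on reads as well as enrichment. Position is the midpoint. Spans run from the first to the last midpoint of a chromosome. No region was left out. Counts were compared given their exposure (Mb, neighbouring pairs or regions) by exact binomial tests, two-sided, adjusted over 5 comparisons in each of 3 families. The tests take counts as Poisson. For shares of pairs or regions this makes them conservative, the more so the larger the share. Python 3.11.15, numpy 2.4.6, pandas 2.3.3, scipy 1.17.1, statsmodels 0.14.6 and matplotlib 3.10.9 were used. The density test was checked on simulated lists of regions placed independently of each other. That check does not cover counts as uneven as those of the arms, nor the tests of close pairs and strong regions.

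The regions named are the 10 strongest, stretches of 150 kb or more, the 5 closest pairs, runs of 4 or more, the 3 widest and the narrowest, those beside the limits and the fullest and emptiest windows; other regions were singled out after their values were seen. Members, lists and tests were chosen with earlier results of these data known.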

Additional observations from a re-analysis of the deposited data

How the results depend on the processing

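No paired analysis was possible because q-values were deposited for the combined libraries only, and for that reason no replicate could be left out. Of 79 alternatives, 68 kept direction and side of the threshold (or, for stretches, a count within 1.5 times). The low density of the V arms against the arms of III (0.442 to 0.524) and IV (0.508 to 0.652) and against the V centre (0.553 to 0.742) passed under all 6 alternatives; that against II lost its call with 500 kb windows (0.777). For strong regions, arms taken as the outer 25% of the span brought the ratios to II (0.708), III (0.712) and the V centre (0.715) past the threshold. Ratios that passed under no setting crossed 1: close pairs against III within 1 kb (1.12) or with q under 0.001 (1.07), against the V centre within 5 kb (1.06), left over right arm with q under 0.001 (0.874), and strong regions, left over right, at q under 1e-50 (0.929) or 0.001 (0.98). Stretches of 200 kb or more numbered 7 in place of 35, as the longer minimum must give. The cause of the other changes was not tested. Depth is unknown, so a stretch without a region may still hold binding short of the authors' threshold.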
